A study of Mus musculus with 3 samples.

Results

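The splicing factors described here are 100 genes of the hnRNP, SR, snRNP and related families in the R1 mouse embryonic stem (ES) cell line, out of 19057 genes that the array read with a single gene symbol. They were taken by name: every gene whose only symbol in the platform annotation begins with Hnrnp, Srsf, Sf3a, Sf3b, Snrp, Snrnp, U2af, Prpf, Ptbp, Rbfox, Esrp, Mbnl, Celf, Srrm or Lsm followed by the letter or number of a family member, with Snrpn left out. The names fall into 14 families and were read by 125 probe sets. The study holds 1 group, 3 biological repeats of the R1 line (strain 129), with no treatment, time or genotype in the labels that differs between them, on an Affymetrix Mouse Gene ST array. Because all 3 arrays carry the same kind of sample, no condition is compared, and the questions are which members gave signal and how far the repeats differed. The labels name neither growth medium nor feeder cells, and call the samples biological repeats without saying whether these were separate cultures, so p-values measure only the spread between these samples. All 9 measured ES cell markers, among them Pou5f1, Nanog, Sox2 and Zfp42, were above both background limits used here on every array. The stricter limit was passed by 41.8% of genes outside the receptor families that set the other. It was also passed by 7 of 8 fibroblast markers and 3 of 4 epithelial markers, so such counts do not by themselves tell these cell types apart.

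Splicing removes introns from pre-mRNA in the spliceosome, a machine built on small nuclear ribonucleoproteins (snRNPs), in which short RNAs are held by a ring of Sm or Lsm proteins. U1 binds the 5′ splice site, U2AF and the SF3 proteins of U2 mark the branch point and the 3′ splice site, and the U4/U6.U5 tri-snRNP then joins and is rearranged into the active enzyme. SR proteins mostly promote the use of an exon and hnRNPs often repress it, while the PTB, RBFOX, ESRP, MBNL and CELF families shift exon choice between tissues. Pluripotent cells are known for exon patterns that change when neurons or muscle form.

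Values are log2 of the deposited probe set intensity, averaged over the probe sets of a gene. The background limit was set on each array by 1170 genes for odour and pheromone receptors, as the value that 95% of them did not pass: 4.72, 4.60 and 4.61 in repeats 1, 2 and 3. A stricter limit came from 156 genes of other families with tissue-restricted expression (keratin-associated, beta-defensin, taste receptor, late cornified envelope and prolactin-family genes), at 6.21, 6.31 and 6.22. A gene below either limit was not shown to be silent, and because brightness depends on the probes, no gene's level is ranked against another's. Nearly all splicing factors gave signal. Of the 100 members 96 were above the first limit on all 3 arrays, against 71.4% of 17887 genes outside the receptor families. Above the second limit were 86 members, against 41.8% of those genes, and above the 99th percentile of the receptors were 92, against 55.0%. Such shares were not particular to splicing factors. Of 50 DEAD and DEAH box helicase genes 96% passed the first limit and 90% the second, and of 69 cytosolic ribosomal protein genes 98.6% and 95.7%. All members of the Hnrnp, Srsf, Sf3, Snrp, Snrnp, U2af, Prpf, Ptbp, Esrp, Mbnl and Lsm families passed the first limit, so the 4 that failed belong to the Rbfox, Celf and Srrm families. One of these calls, that of Rbfox3, depended on which receptor symbols set the limit. With the 12 receptor symbols that carry a suffix included, a wider set whose values had been seen before the narrower one was taken, 97 members passed, against 71.6% of 17875 genes. No test of the share was made.

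**Figure D1:**
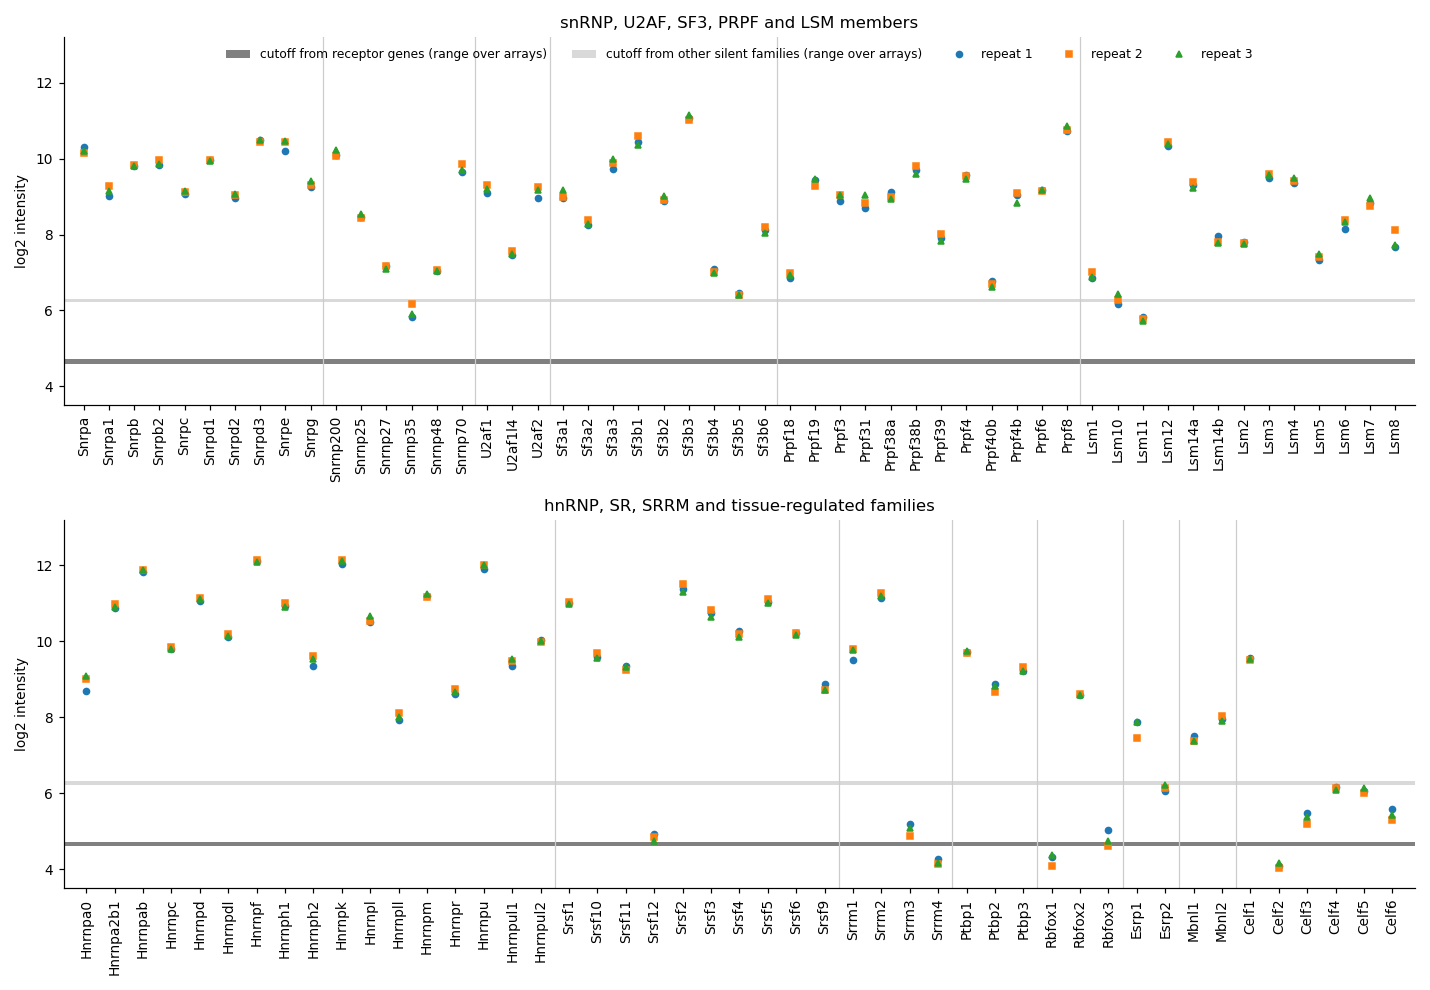
Log2 intensity (y axis) of each of the 100 members (x axis, grouped by family) in repeats 1 (circles), 2 (squares) and 3 (triangles), with bands for the 2 background limits over the arrays. The repeats lie close together in each member, and the only members at or under the lower band are Srrm4, Rbfox1, Rbfox3 and Celf2, with Srsf12 just above it.

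The measured Snrp genes, which encode proteins of the snRNPs, gave clear signal in every case. Of 10 Snrp genes all lay above the stricter limit. Snrpa, a U1 protein that binds the U1 RNA, read 10.29, 10.15 and 10.19 in repeats 1, 2 and 3, and Snrpa1, a U2 protein, read 9.03, 9.27 and 9.14. Among the Sm ring genes, Snrpb, Snrpd1, Snrpd2, Snrpd3 and Snrpg had SDs of 0.011 to 0.077 over the repeats, and Snrpe one of 0.14. Snrpb read 9.82, 9.83 and 9.81, with the smallest SD (0.011) among all members above background. Snrpe, at 10.21, 10.43 and 10.48, was lowest in repeat 1 and the least even of the Snrp genes (SD 0.14). Among 6 Snrnp genes, the U5 helicase gene Snrnp200 read 10.10, 10.08 and 10.22 and Snrnp70, the U1 protein that contacts SR proteins, 9.66, 9.87 and 9.71.

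Of 7 measured genes of the minor spliceosome, which removes a rare class of introns, 6 passed the stricter limit on all arrays. That limit was passed by 41.8% of genes outside the receptor families. Snrnp25 read 8.46, 8.45 and 8.53 and Snrnp48 7.04, 7.05 and 7.03, both above the stricter limit on all arrays. Snrnp35, another protein of the same U11/U12 particle, read 5.82, 6.18 and 5.91. It passed the receptor limit on every array and the stricter one on none. Snrnp48 had an SD of 0.012 over the repeats and Snrnp35 one of 0.19, highest in repeat 2.

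The factors that choose the 3′ splice site all gave signal. U2af1 and U2af2, the subunits that bind its AG and its pyrimidine tract, read 9.09, 9.30 and 9.21, and 8.97, 9.27 and 9.18. The paralog U2af1l4 read 7.46, 7.57 and 7.49. All 3 were lowest in repeat 1 and highest in repeat 2. Of 9 Sf3 genes all passed the stricter limit when probe sets were averaged, although 1 probe set of Sf3b4 did not pass it on every array. Sf3a1 read 8.96, 8.996 and 9.19, Sf3a2 8.26, 8.39 and 8.27 and Sf3b1, which clamps the branch point, 10.44, 10.60 and 10.36. The small subunit gene Sf3b5 was just above that limit, at 6.46, 6.42 and 6.40.

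All 12 Prpf genes, most of them subunits of the tri-snRNP or of the complexes that activate it, also lay above the stricter limit. Prpf18, which acts at the second step of splicing, read 6.84, 6.99 and 6.93, and the ubiquitin ligase gene Prpf19 read 9.44, 9.28 and 9.47. Prpf8, the scaffold at the spliceosome's centre, read 10.73, 10.75 and 10.86. Prpf6, which bridges the particles of the tri-snRNP, hardly moved, at 9.16, 9.16 and 9.18 (SD 0.012). Prpf31, a protein of the U4/U6 particle, was the least even Prpf gene at 8.71, 8.84 and 9.04, highest in repeat 3.

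Many Lsm proteins form rings on U6 RNA, on messenger RNA bound for decay or on the U7 RNA of histone message processing, whereas Lsm12, Lsm14a and Lsm14b are no subunits of these rings. Of the 13 Lsm genes 11 passed the stricter limit. Lsm1, the subunit particular to the decay ring, read 6.85, 7.01 and 6.87. Lsm8, which takes its place in the U6 ring, read 7.68, 8.11 and 7.73, highest in repeat 2, while the other repeats lay within 0.05 of each other. The members that missed the stricter limit on 1 or more arrays were the U7 proteins' genes: Lsm10 read 6.18, 6.29 and 6.43 and passed it on 1 array, and Lsm11 read 5.84, 5.79 and 5.72 and passed it on none. Both passed the receptor limit on all 3 arrays.

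Among regulators of splice site choice, the 17 Hnrnp genes all passed the stricter limit, with means between 8.01 and 12.11. Hnrnpa0, which binds AU-rich RNA, read 8.69, 8.997 and 9.09, lowest in repeat 1 and the most variable of the Hnrnp genes (SD 0.21). Hnrnpa2b1, a relative of the core hnRNP A1, read 10.88, 10.99 and 10.90. Hnrnpll, known for exon skipping in activated lymphocytes, averaged 8.01 (SD 0.094), above both limits on all arrays. The other 14 had SDs from 0.022 for Hnrnpab to 0.14 for Hnrnph2.

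The SR family was split between 9 genes that passed the stricter limit and 1 that nearly failed the lower one. Srsf1, the founding splicing activator, read 11.01, 11.03 and 10.99, and Srsf10, which turns into a repressor when dephosphorylated, read 9.59, 9.70 and 9.56. Srsf12 read 4.94, 4.85 and 4.74, at most 0.25 above the receptor limit on any array and below the 99th percentile of the receptors on all of them. The SR-related genes were split too. Srrm1 and Srrm2, large serine- and arginine-rich proteins of the general spliceosome, read 9.51, 9.80 and 9.77, and 11.14, 11.26 and 11.20. Srrm4, which drives inclusion of microexons in neurons, read 4.27, 4.12 and 4.16, under the receptor limit on every array. Its paralog Srrm3 read 5.18, 4.88 and 5.07, above the receptor limit on all arrays but below its 99th percentile on all of them.

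Each of the PTB, RBFOX, ESRP, MBNL and CELF families had at least 1 member above both limits on all arrays. Of the 20 Ptbp, Rbfox, Esrp, Mbnl, Celf and Srrm genes 10 were, among them Srrm1 and Srrm2 of the general spliceosome. That share is not far from the 41.8% of genes outside the receptor families. All of Rbfox1, Rbfox3, Srrm3, Srrm4 and Celf2 to Celf6, most of them known from neurons or muscle, were among the other 10. Ptbp1, which represses neural exons in dividing cells, read 9.72, 9.70 and 9.74. Ptbp2, the paralog that rises as neurons form, read 8.88, 8.67 and 8.82, and Ptbp3, known from blood cells, read 9.23, 9.33 and 9.21, so that all 3 PTB genes gave signal far above both limits. Rbfox2, the broadly expressed RBFOX gene, read 8.58, 8.62 and 8.60 with an SD of 0.022. Rbfox1, of neurons and muscle, read 4.33, 4.07 and 4.37, below the receptor limit on every array. Rbfox3, which encodes the neuronal marker NeuN, read 5.02, 4.60 and 4.74. It exceeded that limit in repeats 1 and 3 and lay level with it in repeat 2, at a difference of -0.0013. With the wider receptor set that difference was 0.0028, so Rbfox3 is at the limit and neither call is firm.

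The CELF family showed a similar division. Celf1, expressed widely, read 9.55, 9.51 and 9.54 (SD 0.018). Celf3, Celf4, Celf5 and Celf6, best known from the brain, read 5.47, 5.19 and 5.36, then 6.17, 6.13 and 6.09, then 6.06, 6.01 and 6.14, and 5.57, 5.28 and 5.42 over the repeats. All 4 passed the receptor limit on 3 arrays and the stricter limit on none. Celf2 averaged 4.09, 4.03 and 4.16, below background, although its probe sets disagreed, as described with the other genes read more than once. Mbnl1 and Mbnl2, which turn exons to the pattern of differentiated cells, read 7.51, 7.37 and 7.37, and 7.96, 8.03 and 7.91, above both limits. Of the epithelial regulators, Esrp1 read 7.86, 7.46 and 7.87 and passed both limits, whereas Esrp2 read 6.06, 6.13 and 6.21 and passed the receptor limit only.

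**Figure D2:**
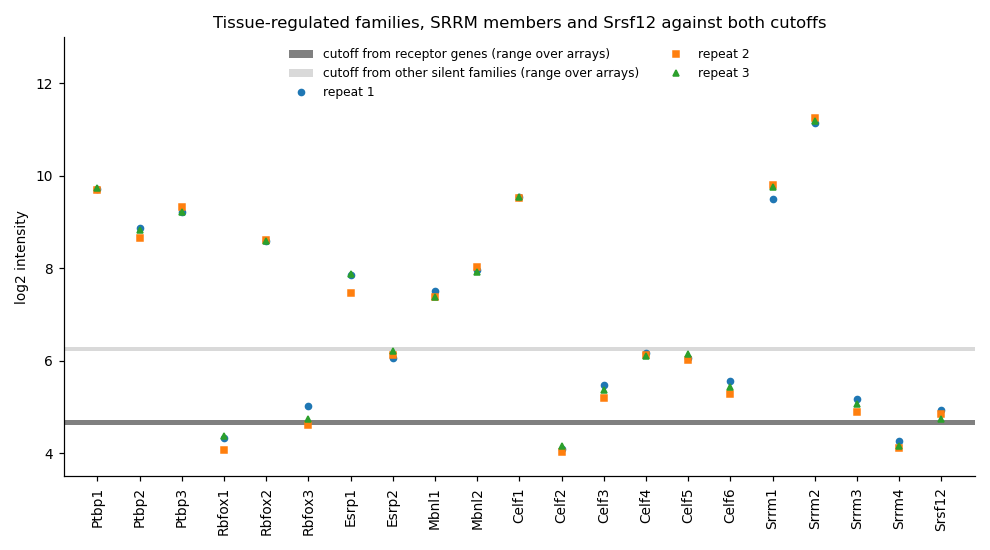
Log2 intensity (y axis) of the PTB, RBFOX, ESRP, MBNL, CELF and SRRM genes and Srsf12 (x axis) in the 3 repeats, with bands for the receptor limit (dark) and the limit from other silent families (light). Ptbp1, Ptbp2, Ptbp3, Rbfox2, Esrp1, Mbnl1, Mbnl2, Celf1, Srrm1 and Srrm2 lie above both bands, and the other 11 genes lie under the light band.

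Other splicing genes came from lists outside the name rule. All 30 spliceosome subunits with other names, all 10 genes of the SMN complex and Cajal bodies, where snRNPs are assembled and mature, all 5 measured SR protein kinases and all 26 measured general RNA-binding regulators were above the receptor limit on 3 arrays, against 71.4% of genes outside the receptor families. Of 14 neural and muscle regulators 12 passed it and 7 passed the stricter limit, which 41.8% of those genes passed, so the second count is near the share of all genes. Elavl4, a neuronal Hu protein gene, at a mean of 3.79 (SD 0.077), and Khdrbs2, a neural relative of Sam68, at 3.31 (SD 0.077), did not pass the receptor limit on any array. All 7 measured minor spliceosome genes, of which Snrnp25, Snrnp35 and Snrnp48 are members, passed the receptor limit, and 6 passed the stricter one. No gene of these lists passed limma's variance test after adjustment, against 0.162% of all genes tested. In that test an unadjusted p under 0.05 was found in 1 of 10 SMN complex genes, 1 of 7 minor spliceosome genes and 2 of 26 general regulators. The other lists had none, and 5.75% of all genes tested had such a p. In lists this small 1 gene moves the share widely. The minor spliceosome genes had a median SD of 0.136, against 0.101 over all genes above background. Markers of other cells were read beside the members under the stricter limit. Of 8 measured neural markers, Rbfox3 itself among them, 5 passed the receptor limit on 3 arrays and 3 the stricter one, with a summed intensity of 514 to 547 over the arrays. Of 6 muscle markers 6 and 2 did so (345 to 384), and of 4 haematopoietic markers none did (43.7 to 44.4). The neural and muscle counts at the stricter limit are likewise near or below the 41.8% of genes outside the receptor families. The part of such cells in the signal of Celf, Srrm or Ptbp genes was not tested, and in a bulk sample fewer cells of a type and less RNA per cell cannot be told apart.

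The CpG content of the members' start sites, which the name rule did not use, varied among them. RefSeq windows of 300 bases around the start (250 before, 50 after; build GRCm38.p6) were matched for 84 members, in 122 windows. Members' windows held a median of 24 CpG dinucleotides, against 7 in all 32851 windows and 13 in the 21263 of protein-coding genes. Fewer than 10 were found in 17 of the members' windows (13.9%), against 56.5% of all windows and 43.2% of protein-coding ones. Of 12 members that missed the stricter limit on 1 or more arrays and had a window, 3 (Rbfox1, Rbfox3 and Srrm3) had fewer than 10 in every window, and of the 72 that passed it, 1 did (Snrpa1). The others overlapped: Srrm4, below background, had 25, Srsf12 had 26, and the 5 windows of Celf2 held 4 to 48. The 250 bases before the start are shown for Rbfox1, Rbfox3 and Srrm3, then for Srrm4 as the contrary case, and for 3 members that read far above both limits, with each CpG in capitals. These genes were chosen after their values were seen, and for Rbfox1 the window richer in CpG is shown.
Rbfox1, chr16:7069585-7069834 (+ strand): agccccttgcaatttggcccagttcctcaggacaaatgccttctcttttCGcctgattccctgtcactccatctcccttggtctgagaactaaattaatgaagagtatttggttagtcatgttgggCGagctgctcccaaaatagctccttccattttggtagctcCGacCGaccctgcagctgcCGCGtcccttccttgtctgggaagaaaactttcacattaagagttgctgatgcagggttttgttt
Rbfox3, chr11:118761042-118761291 (- strand): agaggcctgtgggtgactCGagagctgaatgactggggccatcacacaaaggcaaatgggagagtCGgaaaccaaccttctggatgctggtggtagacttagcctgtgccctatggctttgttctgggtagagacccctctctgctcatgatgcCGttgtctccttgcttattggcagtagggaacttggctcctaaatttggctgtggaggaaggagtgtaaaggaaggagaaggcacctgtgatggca
Srrm3, chr5:135817856-135818105 (+ strand): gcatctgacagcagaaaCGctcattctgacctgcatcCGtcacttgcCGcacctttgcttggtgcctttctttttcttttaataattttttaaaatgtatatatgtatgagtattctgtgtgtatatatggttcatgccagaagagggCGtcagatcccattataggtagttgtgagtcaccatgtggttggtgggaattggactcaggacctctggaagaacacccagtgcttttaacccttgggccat
Srrm4, chr5:116591818-116592067 (- strand): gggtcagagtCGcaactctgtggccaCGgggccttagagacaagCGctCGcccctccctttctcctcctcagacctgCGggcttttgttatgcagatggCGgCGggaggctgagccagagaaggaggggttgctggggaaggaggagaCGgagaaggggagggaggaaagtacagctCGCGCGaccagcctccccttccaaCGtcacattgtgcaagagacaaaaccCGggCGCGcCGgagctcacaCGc
Ptbp2, chr3:119783389-119783638 (- strand): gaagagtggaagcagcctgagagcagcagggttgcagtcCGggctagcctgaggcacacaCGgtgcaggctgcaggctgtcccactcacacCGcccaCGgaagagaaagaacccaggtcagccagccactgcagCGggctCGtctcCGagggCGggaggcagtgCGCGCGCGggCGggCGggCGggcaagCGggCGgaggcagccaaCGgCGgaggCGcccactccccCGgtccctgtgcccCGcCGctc
Celf1, chr2:90940147-90940396 (+ strand): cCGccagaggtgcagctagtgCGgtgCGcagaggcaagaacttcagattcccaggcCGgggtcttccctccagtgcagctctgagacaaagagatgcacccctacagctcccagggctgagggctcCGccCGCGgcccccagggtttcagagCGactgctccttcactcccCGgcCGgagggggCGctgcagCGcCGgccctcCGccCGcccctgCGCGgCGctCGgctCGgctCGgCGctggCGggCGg
Srsf3, chr17:29032410-29032659 (+ strand): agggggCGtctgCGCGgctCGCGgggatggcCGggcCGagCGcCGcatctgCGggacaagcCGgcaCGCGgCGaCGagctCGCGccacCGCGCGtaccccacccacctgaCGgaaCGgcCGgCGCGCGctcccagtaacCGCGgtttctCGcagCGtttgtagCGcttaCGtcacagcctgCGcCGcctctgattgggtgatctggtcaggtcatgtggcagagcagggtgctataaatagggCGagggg
The stretches shown held 6 CpGs for Rbfox1, 3 for Rbfox3, 4 for Srrm3 and 17 for Srrm4, against 23 for Ptbp2, 24 for Celf1 and 35 for Srsf3.

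Sequence motifs common in promoters of general genes were also searched on both strands of the 300-base windows. The letters CCGGAAG, bound by ETS factors, occurred in 27 of the members' windows (22.1%), in 22 genes, against 8.86% of all windows and 11.6% of protein-coding ones. The NRF1 site, GCGCA and GCGC with any 1 base between them, occurred in 23 (18.9%), among them those of Srsf2, Hnrnpm and U2af1, against 4.60% of all windows and 6.38% of protein-coding ones. The YY1 letters AANATGGCG were in 7 (5.74%, against 2.38% of all windows and 3.12% of protein-coding ones). CCAAT was in 53 (43.4%, against 37.4% and 38.2%) and TATAAA in 11 (9.02%, against 13.6% and 12.6%). Of the 84 members with a window, 22 held the ETS letters, 19 the NRF1 letters and 6 the YY1 letters, so most members lacked each. No window of Rbfox1, Rbfox3, Srrm3, Srrm4 or of Celf1, Celf2, Celf3, Celf5 and Celf6 held any of the 3. The same was true of Srsf1, Srsf3, Hnrnpk and Ptbp2, which like Celf1 passed the stricter limit, so this lack was not particular to the dim genes. Windows of 1 gene can overlap, so these shares are descriptions without a test, and neither a match nor its lack says whether a factor binds there. The ETS, NRF1 and YY1 letters contain CpG themselves.

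Of the members 16 were read by more than 1 probe set, and in 8 of them the probe sets lay over 1 log2 unit apart. Srsf3, a small SR protein gene that regulates its own splicing, had probe sets at means of 12.17, 11.50 and 8.51, a gap of 12.6-fold. Srsf10 had 11.10 and 8.13, Ptbp1 had 10.75 and 8.69, and Lsm5 had 8.13, 8.03 and 6.06. The averaged level of these genes depends on which probe sets are used. Every probe set of Srsf3, Srsf10 and Ptbp1 was above the stricter limit on all arrays, so their call did not turn on the choice, whereas the dimmest of Lsm5 passed only the receptor limit. In Celf2 the call did turn on the choice: 1 probe set read 5.57, 5.59 and 5.55, above the receptor limit on all arrays, and the other 2.61, 2.47 and 2.77. The dimmer probe set of Sf3b4, a U2 protein gene, read 6.45, 6.13 and 6.11 and passed the stricter limit on 1 array, against all 3 for the other. Snrpc and Snrpd2 also spread over more than 1 unit, while the probe sets of Hnrnpk, U2af1 and Srsf5 lay within 0.13 of each other. Small splicing genes have processed copies in the genome, and signal from a copy cannot be told apart from that of the parent here. Another 13 probe sets name several genes, including Hnrnpa1, Hnrnpa3, Hnrnph3, Snrpf and a second one for U2af1l4. All were above the receptor limit on 3 arrays and were not counted.

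**Figure D3:**
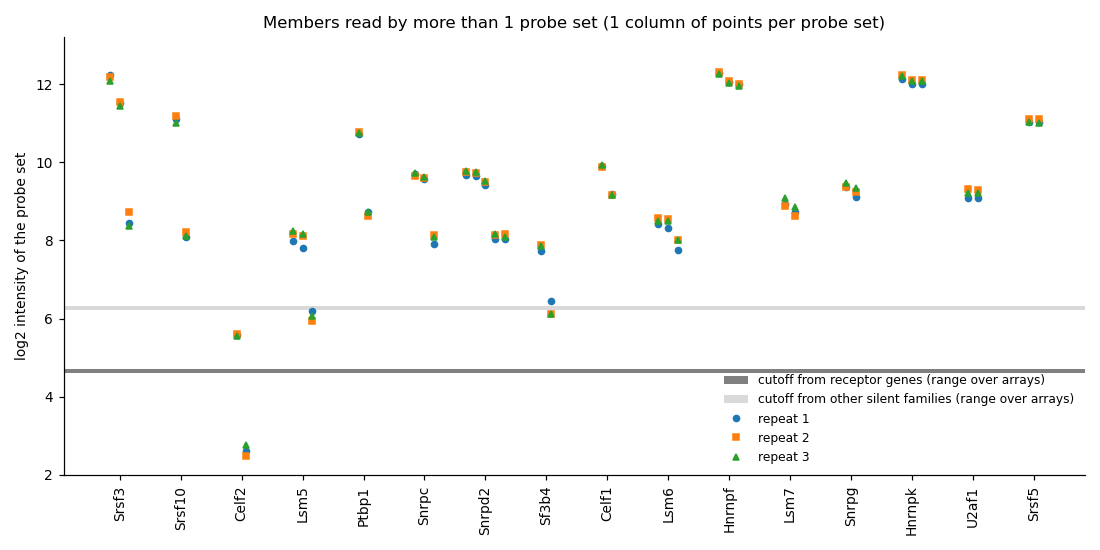
Log2 intensity (y axis) of every probe set of the 16 members with more than 1 (x axis, ordered by the gap between probe sets), each column of points being 1 probe set in the 3 repeats. The highest and lowest columns of Srsf3, Srsf10 and Celf2 lie about 3 or more units apart, and the columns of U2af1 and Srsf5 coincide.

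The splicing factors differed little between the repeats. The 96 members above the receptor limit had a median SD of 0.074 log2 units, against 0.101 over all 12820 such genes. An SD under 0.1 was found in 70 of them (72.9%), against 49.4% of all such genes, and none spanned more than 0.5 units, against 4.46%. The variance limma fits falls with brightness on these arrays, and the members were brighter (median of means 9.18, against 6.79), so each variance was also divided by the one fitted at the gene's brightness. That ratio had a median of 0.55 over 97 members tested, against 0.74 over 13596 genes. It was under 1 in 67 members (69.1%), against 60.0% of all genes tested. For comparison, 48 DEAD and DEAH box helicase genes had a median ratio of 0.47 and 68 cytosolic ribosomal protein genes 0.69. The ratio was under 1 in 66.7% and 72.1% of them. Their median SDs were 0.068 and 0.061, and an SD under 0.1 was found in 68.8% and 76.5%. A small spread was thus not particular to the splicing factors.

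No member passed the limma variance test after Benjamini-Hochberg adjustment at 0.05, where 22 of 13596 genes (0.162%) did. At an unadjusted p under 0.05 there were 3 members, against 5.75% of all genes tested. In limma's test Hnrnpa0 had an adjusted p = 0.81, Lsm8 an adjusted p = 0.83 and Esrp1 an adjusted p = 0.84. These 3 also had the largest SDs among members above background, at 0.21, 0.23 and 0.24. Relative to the mean of the other repeats, Hnrnpa0 differed by -0.36 log2 units in repeat 1 and Lsm8 by 0.40 in repeat 2. Esrp1 differed by -0.41 in repeat 2, in which the epithelial cadherin gene Cdh1 also read lower, at 9.81 against 10.19 and 10.24 in repeats 1 and 3. Not all epithelial markers did so: Krt8 and Krt18 read highest in repeat 2 and Epcam was level with repeat 1. All 4 were above the receptor limit on 3 arrays, and their summed intensity, to which Cdh1 gave the most, was 1572 in repeat 2, against 1768 and 1891 in repeats 1 and 3. Their median difference in repeat 2 from the mean of the other repeats had the opposite sign, at 0.10 log2 units. Of the fibroblast markers, 7 of 8 were above both limits on 3 arrays, with Lum below the receptor limit on each. Their summed intensity, to which Vim gave the most, was 4074 in repeat 2, against 2990 and 3133 in repeats 1 and 3. Acta2 differed most, at 9.11 in repeat 2 against 7.57 and 8.07, and passed limma's variance test (adjusted p = 0.0083). Dcn and Lum read highest in repeat 1, the rest in repeat 2. The part of fibroblast or epithelial cells in the Esrp1 value was not tested. With 3 arrays, a test that misses its threshold does not show that the repeats are alike.

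**Figure D4:**
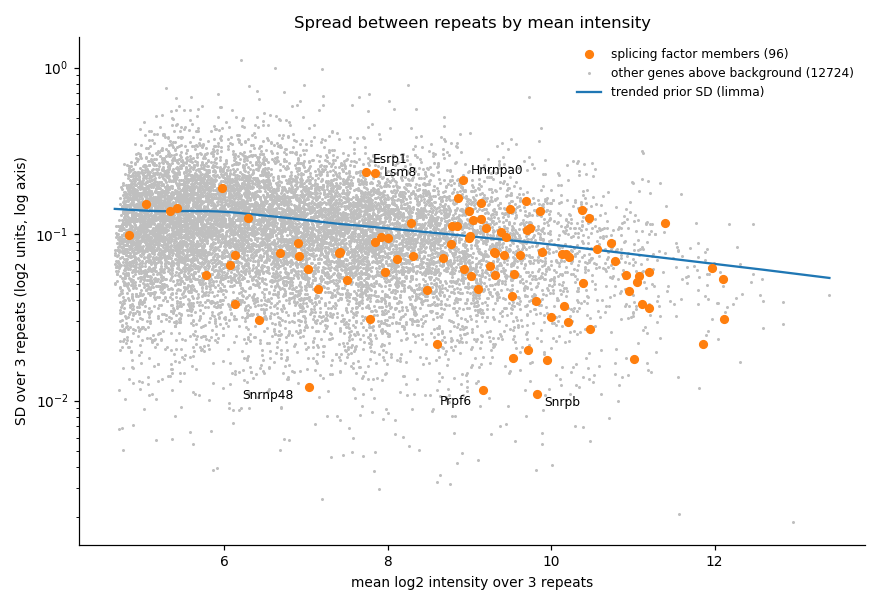
SD over the 3 repeats (y axis, log scale) against mean log2 intensity (x axis) for 96 splicing factor members (large points) and 12724 other genes above background (small points), with the SD that limma fits for each brightness as a line. Esrp1, Lsm8 and Hnrnpa0 are the highest members on the y axis, and Snrpb, Prpf6 and Snrnp48 the lowest.

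Small shifts between repeats differed from family to family and in part depended on scaling, and they were not tested. As deposited, repeat 1 lay below the mean of the other repeats in 65 of 96 members (67.7%, against 53.0% of all genes above background), with a median of -0.033 log2 units, against -0.011. It was lower in 15 of 17 Hnrnp genes (median -0.066), 10 of 13 Lsm genes (-0.092) and 3 of 3 U2af genes (-0.17), but in 4 of 10 Srsf genes (0.023), 7 of 12 Prpf genes (-0.013) and 1 of 5 Celf genes (0.056). The direction over all members and in the Srsf and Prpf genes did not hold under every scaling. In the Prpf genes repeat 1 was lower in 4 of 12 after quantile normalization (median 0.040). The medians of the Sf3, Snrnp, Ptbp and Rbfox genes also changed sign under 1 of the scalings. After quantile normalization repeat 1 was lower in 42 members (43.8%, against 46.4% of all genes), in 10 Hnrnp, 8 Lsm and 0 Srsf genes, with medians of -0.0074, -0.044 and 0.069, and the median over all members was 0.015, against 0.012. With each array centred on its median the numbers were 72 members (75.0%, against 62.0%), 16 Hnrnp, 10 Lsm and 5 Srsf genes, the last with a median of -0.010. The 3 U2af genes were lower in repeat 1 under each of these scalings. Repeat 2 was the farthest from the median in 38 members (39.6%, against 38.4% of all genes), high in 29 (20.5% of all genes) and low in 9 (18.0% of all genes). Its direction too depended on scaling: repeat 2 was above the mean of the other repeats in 59 members as deposited (median 0.020), in 46 after quantile normalization (median -0.0078) and in 67 with centred arrays (median 0.037). As deposited, repeat 1 was the farthest in 32 (33.3%, against 30.5%), high in 12 (14.2% of all genes) and low in 20 (16.3%). Repeat 3 was the farthest in 26 (27.1%, against 31.1%), high in 16 (16.2% of all genes) and low in 10 (14.8%).

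**Figure D5:**
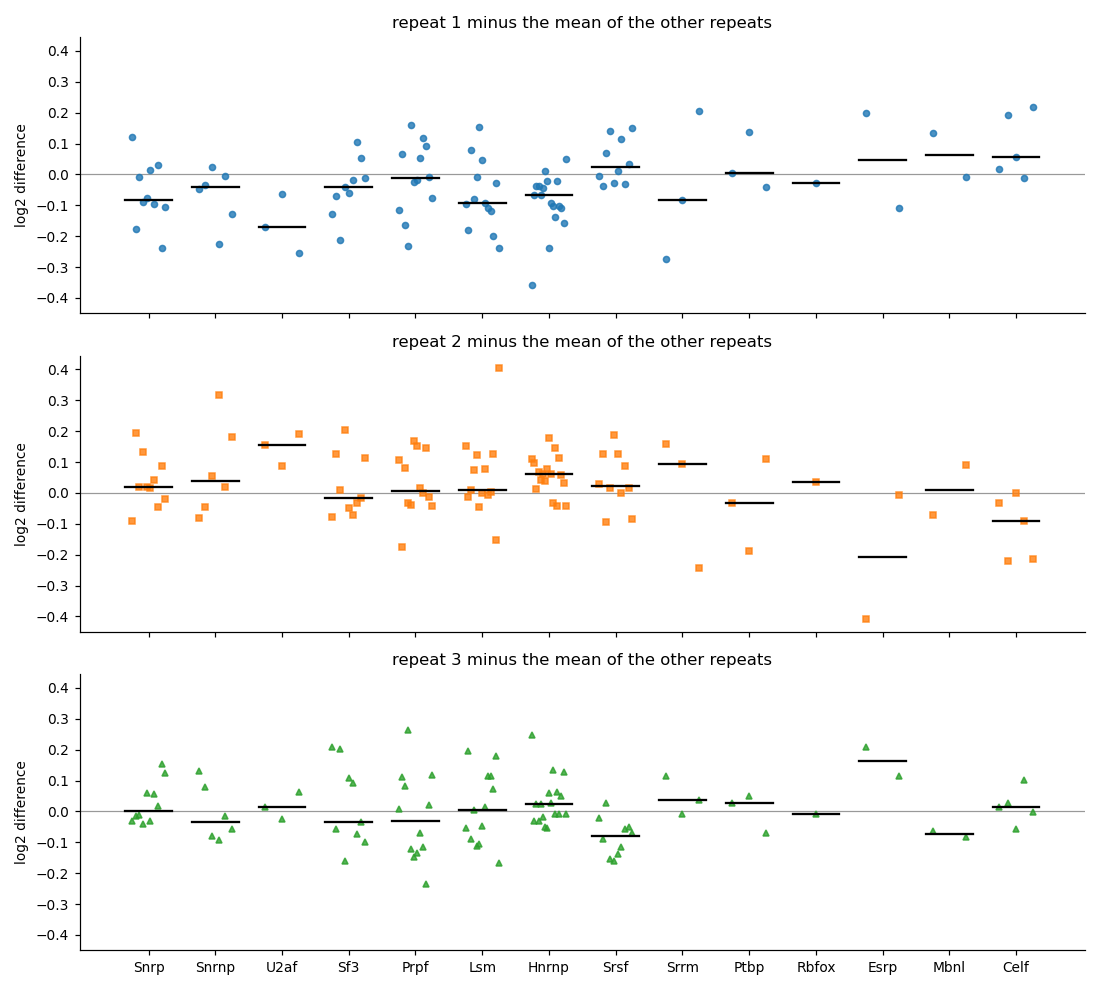
Log2 difference (y axis) between 1 repeat and the mean of the other repeats for each member above background (points), by family (x axis), with the family median as a bar; values as deposited. In the panel for repeat 1 the Hnrnp, Lsm and U2af bars lie below 0 and the Srsf bar just above it, though the Srsf bar falls below 0 with centred arrays.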

How the data were processed

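Total RNA, labelled with biotin, was read on 3 arrays, 1 per biological repeat, and the samples' descriptions number the repeats. The authors deposited 1 intensity per probe set and array, taken as linear from its range. GCOS 1.4 appears among the tools in the submitters' processing notes. How background was removed, arrays were scaled and probes were summarised is not given in the sources used here, and such steps could change small differences. Array medians were 47.8, 46.7 and 46.8. Of 26730 probe sets 20764 had 1 gene symbol in the platform annotation, 1419 several and 4547 none. Only the first kind was used, and its log2 values were averaged per gene. The gene identifiers of all 100 members matched RefSeq GRCm38.p6, the source of the start site sequences.

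The variance test divided each gene's variance over the arrays by limma's trended, robust prior and took p from an F distribution (2 and 9.86 degrees of freedom), for the 13596 genes above the receptor limit on 1 array or more, with Benjamini-Hochberg adjustment (limma 3.58.1, R 4.3.3, Python 3.11.15). The script was tested on simulated data. There a shift of 0.5 log2 units on 1 array was recovered in 2 of 50 genes, and a shift of 1 unit in 27 of 50. The number of arrays limits the precision. Members, lists and tests were chosen with earlier results of these data known. The receptor set was narrowed to whole symbols after the values of the wider set had been seen, which lowered the count of members above background by 1 (Rbfox3). Values on every array were to be given for the Ptbp, Rbfox, Esrp, Mbnl, Celf and Srrm genes, members not above background, members called by the variance test, the 3 largest and 3 smallest SDs, and the first 2 members by alphabet of each other family. Other members with values were chosen after these were seen.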

Additional observations from a re-analysis of the deposited data

How the results depend on the processing

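The number of members above background was 86 to 97 over 9 alternatives, against 96 as reported, and 96 to 97 when 1 array was left out. It was 97 with the wider receptor set, an alternative added after seeing the data, where Rbfox3 joined. No member passed limma's variance test under any of 9 alternatives (quantile normalization, centring, the brightest probe set, a prior without trend or without the robust option, no filter, and leaving out each array). At an unadjusted p under 0.05 these gave 0 to 5 members, and the lowest adjusted p was 0.33 to 0.99. Over all genes tested, the alternatives called from 0 of 13524 genes (without repeat 1) to 39 of 13596 (centred arrays). With so few calls anywhere, a count of 0 members says little about the members. The median SD of 0.074 was 0.0654 after quantile normalization, 0.0688 on the scale of log2(intensity + 16) and 0.0563 to 0.0643 over pairs of arrays, where each SD rests on 2 values. It stayed between 0.0736 and 0.0776 with centring, the brightest probe set, all members or the wider receptor set. Repeat 2 was farthest in 28 to 39 members, and it was not always the repeat most often farthest. After quantile normalization the counts for repeats 1, 2 and 3 were 32, 28 and 36, and with centred arrays 36, 35 and 25. Mean levels moved by over 1 SD in 14 members with the brightest probe set and in none after quantile normalization. With 3 arrays, small differences between repeats were not detectable for single genes. No paired analysis was possible because the labels give 1 group.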
